A study of Mactra quadrangularis with 6 samples.

Results

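Animals make ammonia when they break down amino acids and purines, and bivalves release most of their waste nitrogen in that form. Glutamine synthetase fixes ammonia by joining it to glutamate, AMP deaminase frees ammonia when it turns AMP into IMP, and proteins of the ammonium transporter (Amt) and Rhesus (Rh) families carry ammonium or ammonia across membranes. The mantle lines the shell, secretes it and lies against the seawater held inside it.

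The 4 genes described here were picked by their identifiers from the 25145 genes of the deposited table. They are glutamine synthetase Mve14G000320, AMP deaminase 2 Mve07G013590, ammonium transporter 1 Mve16G004240 and the Rh type A-like ammonium transporter Mve14G010620. All 4 were among the 17790 genes that passed the filter on low counts. AMP deaminase releases ammonia rather than fixing or moving it, so the set holds 1 fixing enzyme, 1 releasing enzyme and 2 transporters. The genes were picked with their difference between the groups in view, so that difference is given below as a description with no test.

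The libraries are mantle messenger RNA of the surf clam Mactra quadrangularis, named Mactra veneriformis in the series title, with 3 libraries from an acidification stress group and 3 from a group in normal seawater. According to the series text the acidified animals met high pH, the opposite of acidification, so acidified and control serve here as the labels' names only. The sources used here give no strain, age, pH or duration and do not say what the letter p in the library titles stands for. Whether the libraries of a group came from separate animals is not stated either, so every error and p-value below covers only how these libraries varied, and that variation may be technical.

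Total counts ran from 28482358 to 37066703 per library. The quasi-likelihood test of edgeR gave 0 of 17790 genes (0%) an adjusted p under 0.05 after Benjamini-Hochberg correction over all genes. Before correction 1652 genes (9.29%) were higher and 1447 (8.13%) lower at p under 0.05, and DESeq2 called 711 higher and 526 lower at an adjusted p under 0.05. Genes in a list for mantle and shell matrix summed to 1798 to 2909 FPKM in the acidified and 1745 to 2110 in the control libraries. Calmodulin-like genes (Mve02G013030, Mve02G010760 and Mve02G013010) are among its most abundant, so the sum is not of shell matrix genes alone. They averaged 239, 133 and 117 FPKM in the acidified and 183, 166 and 124 in the control libraries. With the unadjusted p under 0.05, 7 of the 48 genes tested in the list stood higher (14.6%) and 0 stood lower (0%). FPKM, which scales a gene's fragments by transcript length and library size, compares levels between genes. Fold changes come from counts with TMM scaling, which sets each library against the bulk of its genes. The TMM factors ran from 0.849 to 0.987 in the acidified and from 1.08 to 1.19 in the control libraries, so ratios of FPKM sit lower, relative to control, than the fold changes beside them. With library size as the only scaling, the median over all genes moved to -0.33 on the log2 scale.

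The 4 genes spanned a wide range of levels. In the control libraries glutamine synthetase averaged 846 ± 104 FPKM (SD, n = 3), ammonium transporter 1 averaged 64.0 ± 9.86, the Rh type A-like transporter 4.08 ± 0.991 and AMP deaminase 2 1.75 ± 0.346. The control libraries of neighbouring genes in that order did not overlap. In the acidified libraries the order was the same, at 337 ± 30.5, 30.4 ± 4.09, 6.95 ± 6.50 and 0.496 ± 0.167 FPKM. Glutamine synthetase, ammonium transporter 1 and AMP deaminase 2 stood lower in every acidified library than in any control library. The Rh type A-like transporter overlapped between the groups. Groups stood apart in this direction for 13.4% of all genes tested, and since the genes were picked from this contrast nothing is read from their share.

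**Figure D1:**
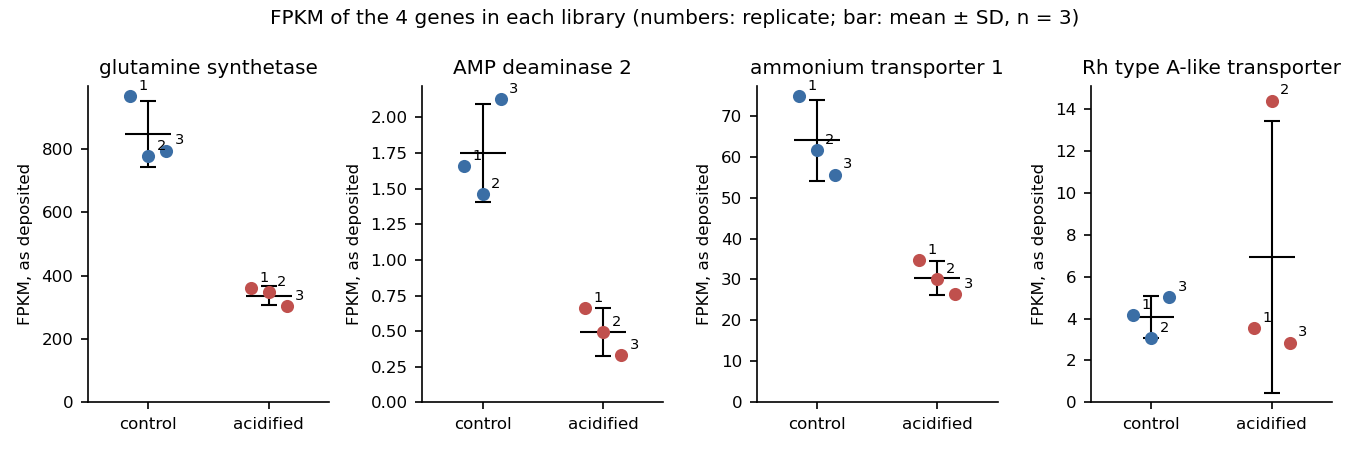
FPKM as deposited (vertical axes, linear, each from 0) for the 4 genes in the 3 control (blue) and 3 acidified (red) libraries, with replicate numbers beside the points and bars for mean ± SD. The acidified points lie below all control points in the first 3 panels, and in the Rh panel acidified replicate 2 lies alone at 14.4.

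Glutamine synthetase Mve14G000320 lies on chromosome 14, from 1493483 to 1509252 on the minus strand, in the coordinates of the deposited table. It held 29546, 29034 and 32161 counts in acidified replicates 1, 2 and 3, and 87768, 72095 and 70610 in control replicates 1, 2 and 3. In FPKM these were 361, 347 and 303 against 965, 778 and 794. The acidified libraries lay close together, control replicate 1 was the highest of all, and the groups were far apart. The gene took 0.0868% to 0.104% of all counts in the acidified libraries and 0.219% to 0.270% in the control libraries. By FPKM it ranked 130th to 148th of all genes in the control libraries and 268th to 312th in the acidified ones. The log2 fold change was -0.99 ± 0.17 (SE), a level 1.99-fold lower in acidified libraries after TMM scaling and 2.51-fold lower by mean FPKM.

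Abundant genes as a whole did not share that direction. Of the 193 tested genes whose mean FPKM was at or above that of glutamine synthetase, 177 had a log2 fold change above 0 and 16 below, with a median of 0.69. Glutamine synthetase had the second lowest value in that set, next to a collagen alpha-2(I) chain-like gene (Mve01G005090) at -1.08. The gene was picked with this difference in view, so nothing is read from its rank. Among all genes tested, 9.02% had a lower log2 fold change. Genes of similar transcript length, from the same 1 of 10 equal bins, had a median of -0.06. Genes of similar mean count, binned in the same way, had a median of 0.17.

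**Figure D2:**
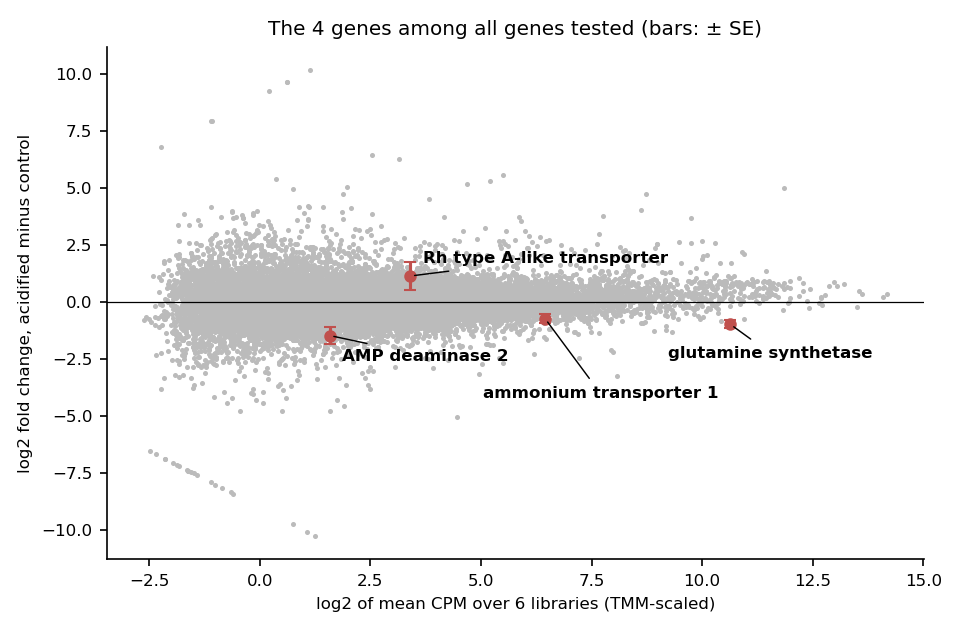
Log2 fold change (acidified minus control, vertical) against the log2 of mean CPM (counts scaled to library size with TMM, horizontal) for the 17790 genes tested (grey), with the 4 genes in red and bars for ± SE. Glutamine synthetase at -0.99 lies near the lower edge of the genes at its level, while the 3 others lie within wider bands.

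A second glutamine synthetase gene stands 8699 bases away on the same strand. This glutamine synthetase-like gene, Mve14G000310 (chromosome 14, 1459754 to 1484783), held 6872, 2377 and 2792 counts in the acidified and 6424, 6404 and 6883 in the control libraries. Acidified replicates 2 and 3 were low, while acidified replicate 1 matched the controls in counts and stood above them in TMM-scaled CPM, so the groups overlapped. Its log2 fold change was -0.35 ± 0.39 (unadjusted p = 0.399 in edgeR), and -1.01 without acidified replicate 1. The ratio of Mve14G000320 to its neighbour in FPKM was 3.39 in acidified replicate 1 and between 8.08 and 10.8 in the other 5 libraries. The names of the pair are alike and reads may be shared between them, so the split is uncertain. Their summed FPKM was 336 to 468 in the acidified and 866 to 1054 in the control libraries, which did not overlap. One further gene, described as glutamine synthetase 2 (Mve16G005290) held 0 to 8 counts per library and was not tested.

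Glutamate dehydrogenase, which interconverts glutamate with 2-oxoglutarate and ammonia, is represented by Mve01G012620. Its description is a hypothetical protein, but its deposited enzyme number is that of glutamate dehydrogenase. It held 2653, 3741 and 8781 counts in the acidified and 5742, 5410 and 6286 in the control libraries. The control libraries agreed closely and the acidified ones spread to both sides of them, for a log2 fold change of 0.11 ± 0.37. Leaving out acidified replicate 3 gave -0.42, leaving out acidified replicate 1 gave 0.39, and the value was -0.25 with library size as the only scaling. Glutamine synthetase stood 18.5 to 25.2 times above glutamate dehydrogenase in FPKM in the control libraries and 6.04 to 18.4 times in the acidified ones. A putative glutamate synthase (Mve05G010850), which makes glutamate from glutamine, had 817, 1573 and 2026 counts against 1758, 1138 and 1497, and its log2 fold change was 0.35 ± 0.33.

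**Figure D3:**
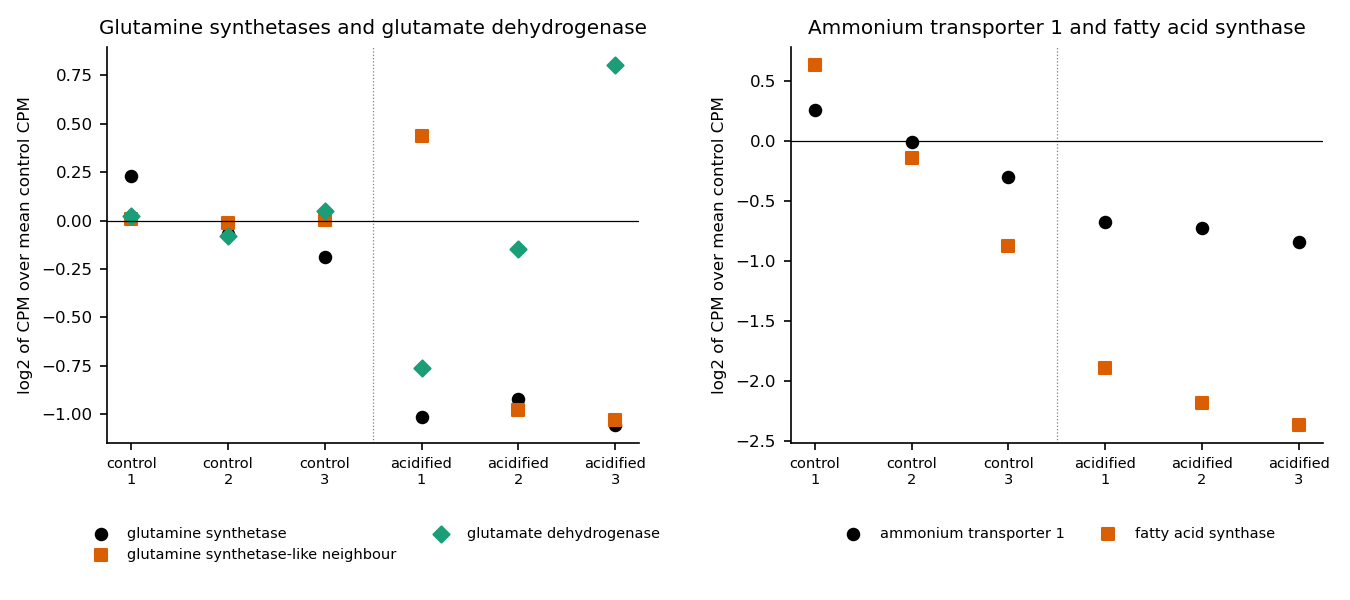
Log2 of each library's TMM-scaled CPM over the mean control CPM (vertical) for the 6 libraries (horizontal, controls left of the dotted line), with glutamine synthetase, its neighbour Mve14G000310 and glutamate dehydrogenase on the left and ammonium transporter 1 and fatty acid synthase on the right. The neighbour gene is high in acidified replicate 1, where it held 6872 counts, and fatty acid synthase keeps the order of ammonium transporter 1 over a wider range.

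AMP deaminase 2 Mve07G013590 (chromosome 7, 47415252 to 47455873, minus strand) belongs to the purine nucleotide cycle, and it is the only gene of the table described as an AMP deaminase. It was the least abundant of the 4, with 55, 42 and 36 counts in the acidified and 153, 137 and 192 in the control libraries. In FPKM these were 0.664, 0.494 and 0.330 against 1.66, 1.46 and 2.13. The highest acidified library stood below the lowest control library. The log2 fold change was -1.49 ± 0.36, a level 2.80-fold lower after TMM scaling, which is the largest of the 3 lower genes with the largest SE of them. It rests on 133 counts over the acidified libraries and 482 over the controls, so counting error adds to the spread. Of all genes tested, 3.27% had a lower log2 fold change.

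Ammonium transporter 1 Mve16G004240 (chromosome 16, 11661735 to 11684523, plus strand) belongs to the Amt family, whose members in plants and microbes take up ammonium. It held 1931, 1715 and 1918 counts in the acidified and 4636, 3883 and 3367 in the control libraries. In FPKM these were 34.7, 30.1 and 26.5 against 74.8, 61.5 and 55.6. The acidified libraries were alike, the control libraries spread more, and the groups did not overlap. The log2 fold change was -0.75 ± 0.20, a level 1.68-fold lower after TMM scaling. It was the smallest difference of the 3, and 14.9% of all genes tested had a lower value. Glutamine synthetase stood 10.4 to 11.5 times above it in FPKM in the acidified libraries and 12.6 to 14.3 times in the control libraries.

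Of 9 genes described as ammonium transporters, with the Rh type A-like gene not counted among them, Mve16G004240 was the only one tested. It held 90.1% of the family's counts in control replicate 3 and 98.7% to 100% in each other library. A pair of other ammonium transporter 1 copies (Mve16G000810 and Mve16G006750) had no count in any library, and both ammonium transporter 3 genes (Mve10G006080 and Mve10G010890) held 0 to 16 per library. A run of 4 neighbouring ammonium transporter 1 genes on chromosome 16 (Mve16G006260, Mve16G006270, Mve16G006280 and Mve16G006290, from 17011046 to 17098552) held 354 counts in control replicate 3, 11 in acidified replicate 1 and 0 in the 4 other libraries. In control replicate 3 these were 123, 38, 69 and 124 counts, so all 4 were present in that library together. Copies with the same name may share reads, and the separate counts are uncertain.

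The Rh type A-like transporter Mve14G010620 (chromosome 14, 32139792 to 32169982, minus strand) is the only gene described as an Rh protein. In vertebrates Rh glycoproteins pass ammonia through the membranes of red cells, kidney and gill. It held 191, 790 and 199 counts in the acidified and 249, 185 and 293 in the control libraries. In FPKM these were 3.56, 14.4 and 2.85 against 4.17, 3.05 and 5.02. Acidified replicate 2 stood alone, and the other 2 acidified libraries lay within or just under the control range. The highest acidified library was 4.82 times the lowest in TMM-scaled CPM, against 1.49 times among the controls. The log2 fold change of 1.13 ± 0.61 came from that 1 library, since it was -0.03 ± 0.29 without acidified replicate 2.

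The other 3 genes depended little on any 1 library. They were picked from these same libraries and their groups did not overlap, so this adds no support to their difference. With each library left out in turn the log2 fold change of glutamine synthetase ran from -1.08 to -0.87, that of AMP deaminase 2 from -1.68 to -1.30 and that of ammonium transporter 1 from -0.88 to -0.60. Among the acidified libraries the FPKM of glutamine synthetase varied by 9.04% (coefficient of variation) and that of ammonium transporter 1 by 13.4%. The figures were 33.7% for AMP deaminase 2 and 93.5% for the Rh type A-like transporter. Among the control libraries the 4 lay between 12.2% and 24.3%.

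**Figure D4:**
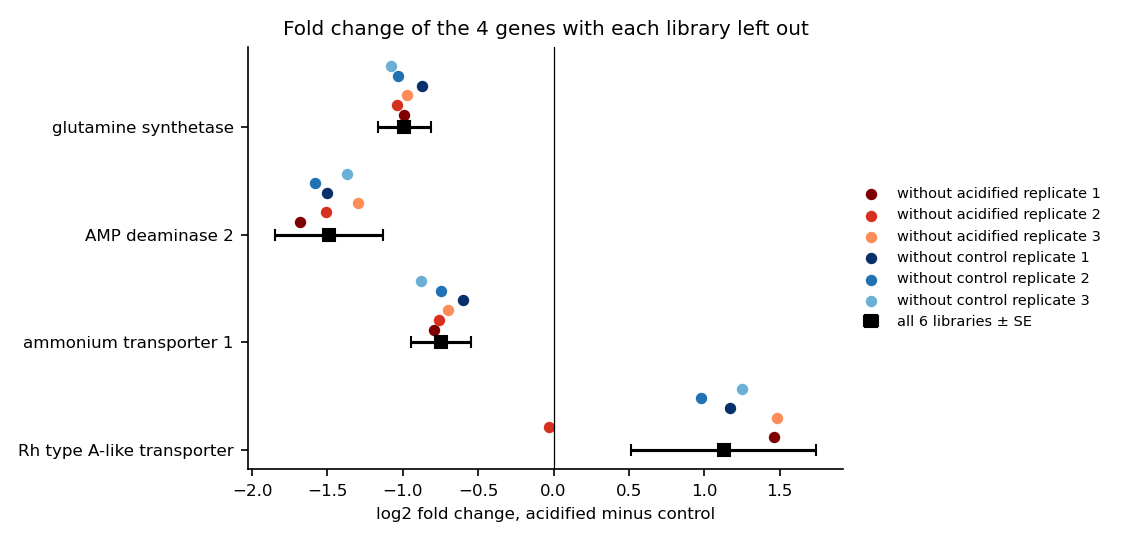
Log2 fold change (horizontal, acidified minus control) of the 4 genes from all 6 libraries (black squares, bars ± SE) and with each library left out (coloured points). The points of 3 genes stay below 0, and that of the Rh type A-like transporter drops to -0.03 without acidified replicate 2.

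The genes with the profile most like each of the 4 were sought among 9802 other genes with an informative description and a mean of at least 1 CPM, by Pearson's r of log2 CPM over the 6 libraries. With 6 points in 2 groups high r is common, and 2.99% of these genes had r above 0.9 with glutamine synthetase, 5.28% with AMP deaminase 2, 2.33% with ammonium transporter 1 and 0.612% with the Rh type A-like transporter. The highest r with glutamine synthetase belonged to a chromodomain helicase CHD4-like gene (Mve04G005430, r = 0.996), a patched domain-containing protein 3-like gene (Mve09G014640, 0.995) and a tripeptidyl-peptidase 2-like gene (Mve15G010150, 0.995). For AMP deaminase 2 they were a von Willebrand factor A domain-containing protein 5A-like gene (Mve09G012070, r = 0.998), a myoferlin-like gene (Mve13G012690, 0.996) and DCAF6 (Mve05G012520, 0.995).

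Fatty acid synthase (Mve01G012410), which builds long-chain fatty acids, had the profile nearest to ammonium transporter 1, at r = 0.999. It held 3003, 2264 and 2422 counts in the acidified and 21742, 12814 and 8204 in the control libraries, a log2 fold change of -2.13 ± 0.38. In each group its libraries fell in the same order as those of ammonium transporter 1. Subunit A of translation initiation factor 3 (Mve13G003890, r = 0.985) and a DHX58 helicase (Mve09G012920, 0.985) came next. The Rh type A-like transporter was nearest to an F-box and leucine-rich repeat protein 21-like gene (Mve09G010740, r = 0.989), a kelch domain-containing protein 10-like gene (Mve08G005910, 0.980) and calmodulin-like protein 2 (Mve15G004170, 0.972), and in these the highest of the 6 counts was also that of acidified replicate 2.

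Other genes of ammonia metabolism and transport were taken from 9 lists of words in the descriptions, with the 4 genes left out. The lists held 140 genes, of which 116 were tested and 0 had an adjusted p under 0.05 in edgeR. At an unadjusted p under 0.05 there were 9 higher and 15 lower, or 7.76% and 12.9%, where all genes tested gave 9.29% and 8.13%. DESeq2 called 7 higher and 4 lower of 91 at an adjusted p under 0.05, where all genes gave 5.37% and 3.97%. The split moved with scaling in the lists and in all genes alike. By library size alone the lists had 4 higher and 26 lower, where all 17790 genes had 577 and 3141. On log2(FPKM + 1) the lists had 3 and 31 and all genes 607 and 3446, and with the trend over transcript length removed the lists had 15 and 12 and all genes 1609 and 1082. There were 8 lower without acidified replicate 2, 9 without control replicate 1 and 8 without control replicate 3. The median log2 fold change of the 116 genes was -0.13, against 0.00 over all genes tested.

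**Figure D5:**
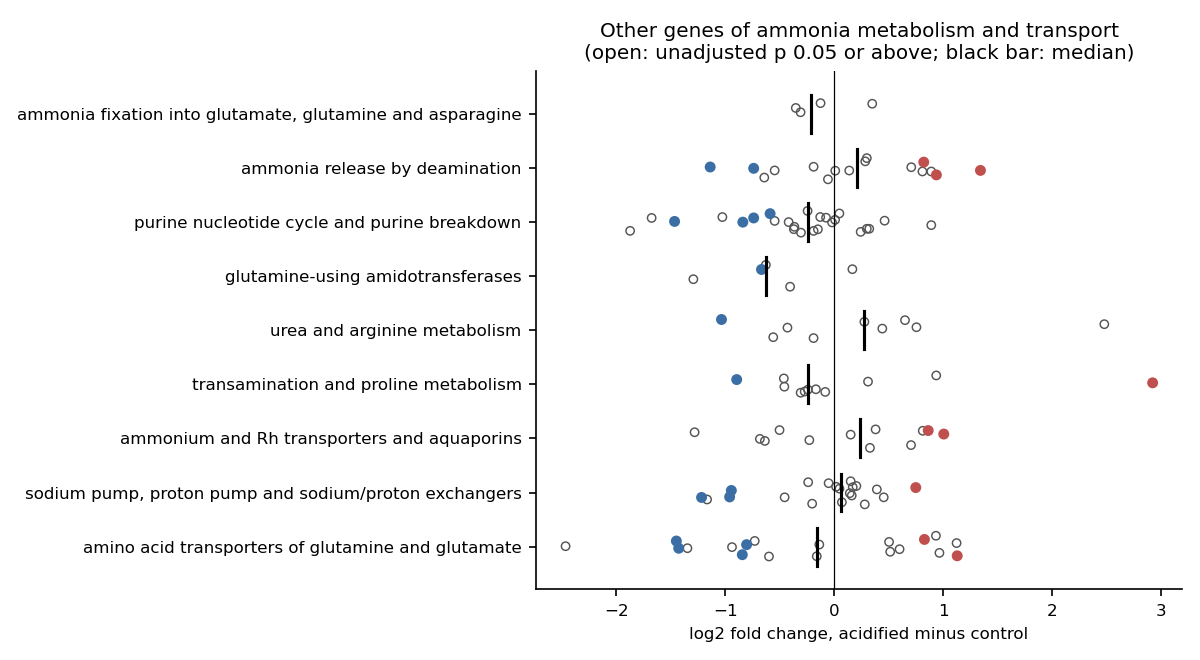
Log2 fold change (horizontal, acidified minus control) of each tested gene in the 9 lists, filled where the unadjusted p was under 0.05 (red higher, blue lower), with black bars for list medians. Medians run from -0.63 for glutamine-using amidotransferases to 0.28 for urea and arginine metabolism, and every list has genes on both sides of 0.

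The list for ammonia fixation, without the member, held 0 genes past an unadjusted p of 0.05 among 4 tested. They were the glutamine synthetase-like neighbour, the glutamate synthase, a glutamine-hydrolyzing asparagine synthetase (Mve11G004020) and a folylpolyglutamate synthase, which matched by wording alone. The glutamate synthase and, by its name, the asparagine synthetase take nitrogen from glutamine. Glutamate dehydrogenase was not in the list, because its description is a hypothetical protein. Among 16 tested genes in the list for ammonia release, 3 were higher and 2 lower. They matched by the wording of their descriptions, and whether each releases ammonia was not tested. The smallest p on the higher side was that of a D-aspartate oxidase-like gene (Mve03G013350), which deaminates D-aspartate, with 621, 246 and 920 counts against 272, 290 and 311. Its log2 fold change was 1.34 ± 0.39. On the lower side it was an adenosine deaminase CECR1-like gene (Mve16G003480), which turns adenosine into inosine, at -0.74 ± 0.27.

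The purine list, to which AMP deaminase 2 belongs by function, had 0 higher and 4 lower of 25 tested and a median of -0.24. They were a purine nucleoside phosphorylase-like gene (Mve06G014520), which splits purine nucleosides, GMP reductase 1-like (Mve06G014940), the adenosine deaminase CECR1-like gene and a xanthine dehydrogenase-like gene (Mve16G004340) of the path to urate. The phosphorylase held 246, 302 and 208 counts against 632, 482 and 641, which did not overlap, for a log2 fold change of -0.84 ± 0.27. The deposited KEGG term for purine metabolism, which is broader, had 16 higher and 14 lower of 172 others tested. Its median was 0.05.

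Among the 5 tested genes in the list of enzymes that draw nitrogen from glutamine, 1 was lower. It was a CAD protein-like gene (Mve04G001680), which starts pyrimidine synthesis, at -0.67 ± 0.26, and -0.27 with the length trend removed. In transamination and proline metabolism 1 of 11 was higher and 1 lower. Delta-1-pyrroline-5-carboxylate dehydrogenase (Mve04G001430), which makes glutamate from the proline breakdown product, held 777, 560 and 991 counts against 1632, 1704 and 2133. The groups did not overlap, and its log2 fold change was -0.89 ± 0.21 (edgeR, unadjusted p = 0.00312, adjusted p = 0.130). Proline dehydrogenase 2 (Mve08G010350), which starts that breakdown, stood at 2.92 ± 1.04, but 783 of its counts came from acidified replicate 3 and it was 1.03 without that library. In urea and arginine metabolism 0 were higher and 1 lower of 9, and that 1, a ligand of neuronal nitric oxide synthase (Mve14G004980, -1.04 ± 0.36), matched by wording and is no enzyme of the path. Arginine kinase (Mve05G010230), which moves phosphate between ATP and arginine, had the smallest p above 0, at 0.65 ± 0.31.

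Of 12 tested aquaporins, which pass water and in some forms small solutes, 2 were higher and 0 lower. No other ammonium or Rh transporter was tested. The aquaporin AQPAe.a-like gene (Mve06G005030) held 10472, 9458 and 10967 counts against 8064, 7020 and 6559, which did not overlap, and its log2 fold change was 0.86 ± 0.18. An aquaporin-1-like gene (Mve07G011420) that carries the deposited term for ammonium transport held 621, 570 and 1000 counts against 265, 758 and 345. In TMM-scaled CPM every acidified library stood above every control library, with acidified replicate 1 at 22.1 and acidified replicate 3 at 31.8 against 7.51, 21.2 and 9.10, and the gap to control replicate 2 was small. In counts and FPKM the groups overlapped, and the level was 2.01-fold higher in acidified libraries after TMM scaling (edgeR, unadjusted p = 0.0423, adjusted p = 0.269). The lower gene with the smallest p, putative aquaporin-10 (Mve12G009870), was at -0.50 ± 0.32.

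Pumps and exchangers move protons and sodium, and proton release can trap ammonia as ammonium outside a cell. Of 20 tested, 1 was higher and 3 lower. The V-type proton pump's subunit e (Mve13G006420) was at 0.75 ± 0.19, and a sodium/hydrogen exchanger 3-like gene (Mve06G008550) at -0.96 ± 0.26, with 124, 110 and 198 counts against 384, 314 and 358. The sodium pump alpha subunit (Mve07G001180), the most counted gene of that list, was at -0.05 ± 0.19.

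The list for amino acid transporters of glutamine and glutamate gave 2 higher and 4 lower of 19. Its genes matched by name, and what each carries was not tested. A large neutral amino acids transporter small subunit 1-like gene (Mve14G011260) held 266, 312 and 211 counts against 929, 888 and 934, far apart, for a log2 fold change of -1.43 ± 0.25. An excitatory amino acid transporter-like gene (Mve10G012070), of a family that takes up glutamate, held 810, 835 and 664 counts against 526, 402 and 434, for 1.13 ± 0.24. For the genes with the smallest p per direction in each list, named here or not, the adjusted p ran from 0.118 to 0.817 in edgeR. None of these differences passed over all genes.

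The deposited KEGG term for nitrogen metabolism, which holds glutamine synthetase and mostly carbonic anhydrases beside it, had 2 higher and 0 lower of 16 others tested, with a median of 0.19. The term for alanine, aspartate and glutamate metabolism had 4 higher and 4 lower of 35, with a median of -0.05.

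Mantle pieces hold other cells, and in bulk RNA fewer cells of a type and less RNA per cell cannot be told apart. The counts below are of markers at an unadjusted p under 0.05, which 9.29% of all genes passed as higher and 8.13% as lower. FPKM summed over all genes was itself higher in the acidified libraries, at 650267 to 695998 against 591553 to 608803 in the control libraries. Muscle markers summed to 9704 to 14820 FPKM in the acidified and 9334 to 16594 in the control libraries. Of 32 tested, 1 was higher (3.1%) and 4 were lower (12.5%), with a median log2 fold change of -0.21. Markers of ciliated cells summed to 376 to 407 against 377 to 496, with 6 higher (9.84%) and 4 lower (6.56%) of 61. Germ line markers summed to 57.2 to 64.6 against 63.1 to 68.6, with 2 higher (12.5%) and 0 lower of 16. Digestive gland markers summed to 516 to 623 against 432 to 560, with 4 higher (30.8%) and 0 lower of 13. Hemocyte markers summed to 453 to 499 against 398 to 466, with 7 higher (26.9%) and 1 lower of 26. The shares of higher genes among germ line, digestive gland and hemocyte markers stood above that over all genes, and that of ciliated cells was near it. The share of lower genes among muscle markers stood above that over all genes. Of the listed markers 1 muscle, 1 ciliary, 2 germ line, 4 digestive and 2 hemocyte genes had no count in any library. The part of these lists in the values of the 4 genes was not tested.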

How the data were processed

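Per the labels' protocols, poly(A) RNA was turned into dUTP libraries that keep the strand and read as paired ends. The submitters' processing notes name cutadapt 1.9, HISAT2 2.2.1, StringTie 2.1.6, DESeq2 and edgeR without roles, and the sources used here give no genome build. The deposited table holds whole-number counts per gene and FPKM values made by the authors, per the file headers, and a further 12 columns of libraries not among the listed samples were not used. Gene names are the table's descriptions of the closest match in another species, not tested functions.

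Counts were analysed in edgeR 4.0.16 (R 4.3.3) with filterByExpr, which set 7355 genes aside, TMM scaling and glmQLFit and glmQLFTest with group as the only term, with Benjamini-Hochberg adjustment over all 17790 genes. SE values come from the F statistic. The procedure was tested on simulated counts. Log2 CPM used a prior count of 2. DESeq2 1.42.0, limma 3.58.1 on log2(FPKM + 1) and log2(FPKM + 0.1), other scalings, no filter, removal of a smooth trend over transcript length (recovered from count over FPKM) and omission of each library were alternatives.

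Members and lists were chosen with earlier results of these data known. Named genes are the 4 members, their families, the smallest unadjusted p per direction in each list and the 3 genes most like each member. Of the genes smallest in p, a GMP synthase-like (Mve04G005440) and an adenylate kinase 8-like gene (Mve16G011180), both on the higher side, are not described above. Others named (glutamate dehydrogenase and glutamate synthase by enzyme number, further list genes and Mve01G005090) were chosen after their values were seen. No sequence is shown because none was used here.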

Additional observations from a re-analysis of the deposited data

How the results depend on the processing

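Glutamine synthetase, AMP deaminase 2 and ammonium transporter 1 stayed below 0 in every alternative run, all on the libraries from which they were picked. With library size as the only scaling their log2 fold changes were -1.31, -1.80 and -1.06, with log2(FPKM + 1) they were -1.32, -0.88 and -1.04, and with log2(FPKM + 0.1) glutamine synthetase and ammonium transporter 1 were at -1.32 and -1.07. These values lack the TMM scaling, and the pseudocount of 1 exceeds the acidified FPKM of AMP deaminase 2. The Rh type A-like transporter ran from -0.03 (without acidified replicate 2) to 1.48 with libraries left out and was 0.37 on log2(FPKM + 1). Leaving out 1 library gave -1.08 to -0.87 for glutamine synthetase, -1.68 to -1.30 for AMP deaminase 2 and -0.88 to -0.60 for ammonium transporter 1.

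Over all genes, 0 passed in edgeR, against 711 higher and 526 lower in DESeq2. Leaving out 1 library gave 0 to 2 higher and 0 lower, the 2 without acidified replicate 1. Of the listed pathway genes, DESeq2 called 11. At an unadjusted p, where 9 were higher and 15 lower, library size alone gave 4 and 26 (577 and 3141 over all genes), both FPKM settings 3 and 31 (607 and 3446 over all genes with the pseudocount of 1, 605 and 3364 with 0.1), and removal of the length trend 15 and 12 (1609 and 1082). Leaving out 1 library gave 7 to 13 higher and 8 to 15 lower. The cause of the difference between edgeR and DESeq2 was not tested.

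Deviations from the group mean had correlations of 0.00894, -0.0435 and -0.00667 between same-numbered libraries, and no acidified library correlated best with its own number. No effect shared by number was seen, but these values cannot tell whether same-numbered libraries were paired by design. With the replicate block the values were -0.73 for ammonium transporter 1, -1.50 for AMP deaminase 2 and 0.69 for the Rh type A-like transporter, with 0 genes passing. At these depths AMP deaminase 2 held 36 to 55 counts per acidified library. The limits that depth sets were not compared between genes.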

Other observations

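A pair of neighbouring genes described as excitatory amino acid transporter 1, which take up glutamate, lay on opposite sides of 0. Mve03G017510 held 3548, 3441 and 3962 counts in the acidified and 1821, 2670 and 3438 in the control libraries, a log2 fold change of 0.83 ± 0.23. Mve03G017520 held 3857, 5097 and 5618 counts against 11164, 7327 and 14162, a log2 fold change of -0.80 ± 0.26. The pair was chosen after its values were seen, and the difference between the genes was not tested.

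A second D-aspartate oxidase-like gene (Mve06G010710) held 664, 591 and 1223 counts in the acidified and 472, 671 and 471 in the control libraries, a log2 fold change of 0.94 ± 0.29, on the same side as the copy named above. Next to AMP deaminase 2 on chromosome 7, the persulfide dioxygenase ETHE1-like gene (Mve07G013580), a mitochondrial enzyme of sulfide breakdown, held 702, 1619 and 1709 counts in the acidified and 730, 635 and 627 in the control libraries. Its log2 fold change was 1.37 ± 0.34, on the other side of 0 from its neighbour. These genes too were chosen after their values were seen.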
